A study of Bos taurus with 14 samples.

Results

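Solute carriers, the membrane proteins that move nutrients, ions and metabolites in and out of cells and organelles, were measured as transcripts in the mammary gland of dry Holstein cows during the last weeks before calving. Members were the probe sets whose single annotated gene symbol has the form SLC, a number, A and a number, with 1 gene left out by the rule. This gave 230 probe sets of 24016 tested, for 162 genes of 9155 named genes, in 41 families. Of the 162 genes, 116 had 1 probe set and 46 had between 2 and 4. Where a gene had several, the one with the greatest average over the arrays describes it. The genes were grouped by the cargo of their family: 27 genes for carriers of the inner mitochondrial membrane, 22 for amino acids, 22 for ions, 21 for metals, 21 for organic ions, vitamins and peptides, 14 for glucose and other sugars, 10 for lipids, bile acids and choline, 8 for neurotransmitters and osmolytes, 5 for nucleotide sugars, 5 for monocarboxylates and other carboxylates, 4 for nucleosides and 3 of the SLC66 family.

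The cows were kept from drying off until calving under long days (LD, 16 h light and 8 h dark) or short days (SD, 8 h light and 16 h dark), by random assignment. Biopsies were taken at day -24 and day -9 relative to parturition and hybridised to Affymetrix bovine arrays. Each photoperiod had 3 arrays for the earlier biopsy and 4 for the later one. All cows were dry and pregnant, so the comparisons are between photoperiods and between both days, with no untreated or lactating group. Nothing in the labels links a biopsy of one day to one of the other, so shared cows are possible. The p-values of the main fit take all arrays as independent, which shared cows would break for comparisons that use both days. The values are log2 signals after robust multi-array average (RMA), a method that summarises the probes of a probe set, and a difference of 1 on this scale is a doubling.

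The mammary epithelium takes up the precursors of milk from blood through solute carriers. Amino acid carriers supply milk protein synthesis, glucose carriers supply lactose synthesis, and fatty acid and carboxylate carriers supply milk fat and energy metabolism. Ion, phosphate and zinc carriers set the mineral content of milk, nucleotide sugar carriers bring UDP-sugars into the Golgi, where lactose is made, and the SLC25 family links the mitochondrion to the cytosol by exchanging nucleotides, carboxylates, amino acids and cofactors.

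The arrays were alike as a whole, with medians between 6.43 and 6.61 and a Pearson correlation across probe sets between 0.950 and 0.992 for every pair. Markers of the labelled tissue were present: the luminal keratin gene KRT8 had group means between 8.39 and 8.74 and the beta-casein gene CSN2 between 12.71 and 12.88. Some arrays stood apart. LD day -24 replicate 1 had the lowest median. It was the lowest of 14 arrays for 32 of the 162 solute carrier genes (19.8%), against 25.4% of all named genes. For 25 solute carrier genes (15.4%) it was the highest, against 12.1% of all named genes. SD day -9 replicate 1 was the highest for 32 solute carrier genes (19.8%), against 9.97% of all named genes. A gap of at least 0.7 separated replicate 4 of LD at day -9 and replicate 3 of SD at day -24 from the other 12 arrays for 280 probe sets, all lower in that pair, and 4 of these were solute carriers. In bulk tissue, fewer cells of a type and less RNA per cell cannot be told apart.

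No solute carrier probe set passed an adjusted p of 0.05 in any of the 7 comparisons made with limma, a linear model fitted to all probe sets with p-values adjusted by Benjamini-Hochberg. The background was the same, since 0 of 24016 probe sets (0%) passed in each comparison. The smallest adjusted p of a solute carrier was 0.636. At an unadjusted limma p under 0.05, SD minus LD gave 4 of 230 solute carrier probe sets at day -24 (1.74%, background 2.42%), 5 at day -9 (2.17%, background 2.77%) and 4 when averaged over days (1.74%, background 1.94%). Day -9 minus day -24 gave 14 in LD (6.09%, background 7.47%), 4 in SD (1.74%, background 4.56%) and 14 when averaged over photoperiods (6.09%, background 7.72%). The photoperiod by day interaction, which is the day difference in SD minus that in LD, gave 4 (1.74%, background 4.15%). In all 7 comparisons of this fit the share of solute carriers was below the share of all probe sets. With probe sets of a mean under 5 left out, it was above for SD minus LD at day -9 and on average. It was then also above for day -9 minus day -24 in LD and on average. These counts depended on single arrays. The fit was repeated under 23 other settings, some of them without arrays, which gave 158 combinations of a comparison and a refit. In 28 of these, the solute carrier share was above the share of all probe sets in the same refit. Comparisons of the same refit share arrays and are not independent. In each bracket below, the first value is the solute carrier share and the second the background of that refit.

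SD minus LD at day -24 gave 9 without LD replicate 1 of that day (3.91%, 3.99%), 9 without LD replicate 3 (3.91%, 3.07%), 11 without SD replicate 1 (4.78%, 4.25%) and 10 without SD replicate 2 (4.35%, 4.49%). The same difference at day -9 gave 3 without LD replicate 1 of that day (1.30%, 2.82%), 12 without LD replicate 3 (5.22%, 4.13%) and 3 without SD replicate 1 (1.30%, 2.71%). Without the first LD array of day -24 it gave 8 (3.48%, 3.96%). The average over days gave 9 without that array (3.91%, 4.91%), 7 without SD replicate 1 of day -24 (3.04%, 2.47%) and 7 without SD replicate 3 (3.04%, 2.13%). It gave 2 without LD replicate 1 of day -9 (0.870%, 1.74%) and 2 without LD replicate 2 (0.870%, 1.97%). These photoperiod shares lay on both sides of their backgrounds.

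Day -9 minus day -24 in LD gave 3 without LD replicate 1 of day -24 (1.30%, 3.85%), 24 without LD replicate 2 (10.4%, 10.8%) and 8 without LD replicate 1 of day -9 (3.48%, 6.20%). In SD it gave 12 without SD replicate 1 of day -24 (5.22%, 7.31%), 7 without SD replicate 3 (3.04%, 2.70%), 7 without SD replicate 3 of day -9 (3.04%, 4.43%) and 7 without LD replicate 1 of day -24 (3.04%, 5.53%). The average gave 9 without LD replicate 3 of day -9 (3.91%, 6.92%). All but 1 of these day shares lay below their backgrounds. Among the refits not listed, that without LD replicate 3 of day -24 lay above. It gave 21 in LD (9.13%, 7.95%) and 17 on average (7.39%, 7.10%).

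The interaction gave 9 without LD replicate 1 of day -24 (3.91%, 3.30%), 8 without LD replicate 2 (3.48%, 4.55%) and 10 without LD replicate 3 (4.35%, 5.14%). It gave 10, 14 and 2 without SD replicates 1, 2 and 3 of day -24 (4.35%, 5.84%; 6.09%, 7.20%; 0.870%, 1.79%). Without arrays of day -9 it gave 7 for LD replicate 3 (3.04%, 5.77%), 8 for SD replicate 1 (3.48%, 3.98%) and 7 for SD replicate 4 (3.04%, 3.54%). Single genes were as dependent: of 153 differences of 0.3 or more in size among the 80 genes named by rule, over all 7 comparisons, 114 turned in sign or moved by over 1.5 times without some single array, and only part of these are given with their values here.

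**Figure D1:**
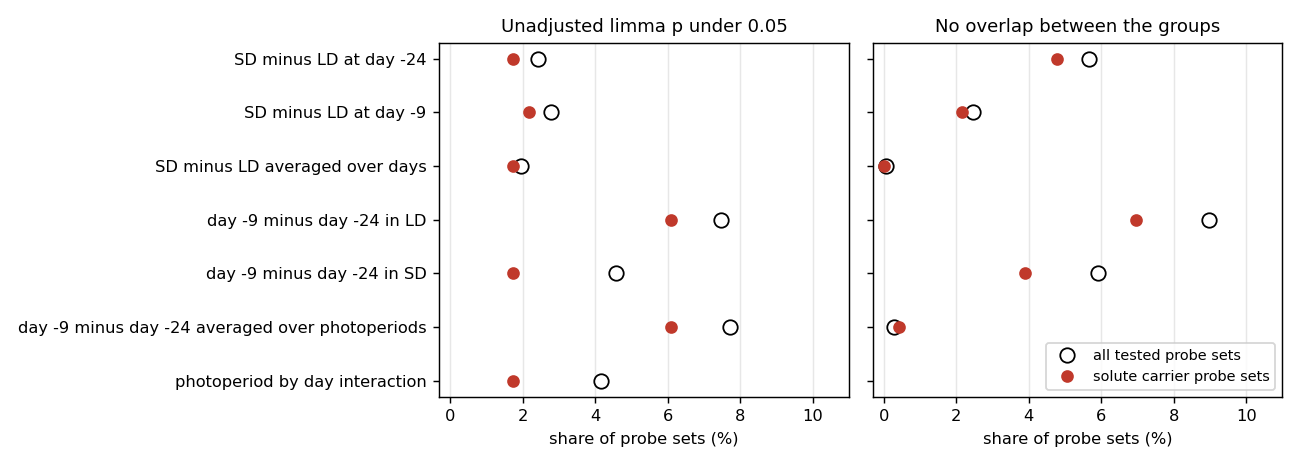
Share of solute carrier probe sets (red, of 230) and of all tested probe sets (open circles, of 24016) with an unadjusted limma p under 0.05 (left) and with no overlap between the arrays of both groups (right), in percent, for each comparison on the vertical axis. The solute carrier share lies below the background in each row, except for the day difference averaged over photoperiods on the right, where it is 0.435% against 0.287%; the interaction has no overlap count.

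The few probe sets behind the smaller counts, named after their values were seen, were these. At day -24 SD was lower for SLC7A1, for second probe sets of SLC39A13, a zinc carrier of the Golgi (-0.39), and SLC8A1 (-0.43), and higher for one of SLC25A12, a mitochondrial aspartate-glutamate carrier (0.47). At day -9 SD was lower for SLC11A1, SLC66A3 and SLC39A11 and higher for SLC27A6 and a second probe set of SLC8A1 (0.40). Averaged over days the probe sets were those of SLC27A6, SLC11A1, SLC66A3 and SLC39A13 (-0.27). For the day difference in SD they were those of SLC7A1, SLC8A1, SLC1A3 and SLC13A3. For the interaction they were those of SLC7A1, SLC39A6 (1.40) and SLC8A1, with a pair of probe sets. That of SLC39A6 was 0.60 without LD replicate 4 of day -9 and SD replicate 3 of day -24, the pair in which this probe set was low, and its other probe set gave 0.22. All these are unadjusted calls.

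Groups did not overlap for a small share of probe sets. SD and LD did not overlap at day -24 for 11 solute carrier probe sets (4.78%, background 5.67%) and at day -9 for 5 (2.17%, background 2.46%), and at both days together for 0 (background 0.05%). The 5 at day -9 were SLC25A34, SLC2A4 and SLC66A3, lower in SD, and probe sets of SLC10A1 and SLC8A1, higher in SD. Day -9 and day -24 did not overlap in LD for 16 (6.96%, background 8.98%), in SD for 9 (3.91%, background 5.9%) and over both photoperiods together for 1 (0.435%, background 0.287%). That probe set was SLC4A7. The absence of calls sits beside wide intervals: the 95% intervals of the 162 genes reached a median of 0.45 to either side for the photoperiod difference at day -24, 0.39 for that at day -9 and 0.43 for each day difference.

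As a whole, the 162 genes lay near 0. The median of SD minus LD was 0.01 at day -24 and -0.03 at day -9, against 0.04 and -0.04 over all named genes. The median of day -9 minus day -24 was 0.09 in LD, with 104 of 162 genes above 0 (64.2%, against 59.9% of all named genes). In SD it was 0.03, with 89 of 162 above 0 (54.9%, against 42.3%). With 1 array left out, the count was between 90 and 103 in LD and between 65 and 97 in SD. After centring each array on its median, 86 genes lay above 0 in LD and 75 in SD. Replicates of a group spread slightly more for solute carriers than for all named genes, with a median within-group standard deviation of 0.27 against 0.24. Of the 162 genes, 34 (21%) had all 4 group means below 4.47, the lowest lower quartile of any array, against 11.3% of all named genes. These low genes were mostly ion carriers (10 of 22) and carriers of organic ions, vitamins and peptides (8 of 21), and their values carry little information on expression.

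The amino acid carriers held the gene of smallest p for the interaction, SLC7A1, the cationic carrier that brings arginine and lysine into cells. Of the 22 genes, 10 lay above 0 for SD minus LD at day -24 and 12 at day -9, with medians of -0.02 and 0.0042. For day -9 minus day -24, 12 lay above 0 in LD (median 0.04) and 13 in SD (median 0.06). The class as a whole thus had no common direction in either comparison.

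SLC7A1 had log2 values of 5.58, 5.68 and 5.45 in LD and 5.33, 5.03 and 5.17 in SD at day -24, and the groups did not overlap. At day -9 the values were 5.35, 5.25, 5.49 and 5.10 in LD and 5.73, 5.36, 5.49 and 5.58 in SD. SD lay below LD at the first biopsy and above it, with overlap, at the later one. SD minus LD was -0.39 at day -24 (95% interval -0.69 to -0.09) and 0.24 at day -9 (-0.02 to 0.50). The interaction was 0.64 (0.24 to 1.03; unadjusted limma p 0.00413, limma adjusted p 0.90), the smallest p of any solute carrier in any comparison. With each array left out in turn and under the other settings tried, the interaction lay between 0.496 and 0.711, and its smallest limma adjusted p was 0.669.

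SLC38A7, which moves glutamine and asparagine out of lysosomes, had the lowest p among solute carriers for the difference between days. Its values at day -24 were 7.36, 7.47 and 7.10 in LD and 7.64, 7.48 and 8.22 in SD. At day -9 they were 8.47, 8.58, 8.00 and 7.98 in LD and 9.44, 7.76, 8.07 and 8.26 in SD. The LD arrays of both days did not overlap, whereas those of SD did, through SD day -24 replicate 3. Day -9 minus day -24 was 0.95 in LD and 0.60 in SD, and their average was 0.77 (0.27 to 1.28; unadjusted limma p 0.00543, limma adjusted p 0.636). The value in SD rested on SD day -9 replicate 1, at 9.44, and was 0.24 without it.

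Other carriers of this class differed by less or in single arrays. SLC1A3, a glutamate and aspartate carrier, was at 6.65, 7.04 and 6.70 in SD at day -24 and at 5.93, 6.72, 6.48 and 6.44 at day -9, a difference of -0.41 that was -0.25 without SD day -9 replicate 1. SLC1A1, the second glutamate carrier named, lay 0.71 higher at day -9 in SD, or 0.47 without SD day -9 replicate 1. Its difference in LD of 0.05 was -0.33 without LD day -24 replicate 1. SLC6A14, which takes up neutral and cationic amino acids, lay between 9.82 and 9.89 in the other SD arrays of day -9 but at 8.42 in replicate 1. Its day difference in SD was -0.52 with that array and -0.16 without it.

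Among other carriers known from mammary amino acid supply, SLC38A2, the sodium-coupled neutral amino acid carrier, lay between 11.10 and 11.44 in all 14 arrays, and its differences in the 4 pair comparisons were between -0.04 and 0.02. SLC3A2, the heavy chain of the large neutral amino acid exchanger, differed by -0.06 and 0.01 between photoperiods and by 0.18 in LD and 0.24 in SD between days. SLC7A5, the light chain of that exchanger, was 0.26 higher at day -9 in LD and 0.18 in SD. SLC1A5, a glutamine carrier, differed between photoperiods by -0.28 at day -24 and -0.01 at day -9 and between days by -0.04 in LD and 0.24 in SD, and SLC1A4, which carries alanine, serine and cysteine, by 0.35 and 0.11. SLC1A4 without LD day -24 replicate 3 differed by 0.11 in LD. SLC38A5 and SLC38A11, relatives of SLC38A2, differed between photoperiods at day -9 by -0.34 and 0.13, and SLC38A5, of low signal, differed by -0.20 without LD day -9 replicate 3 and by -0.22 without replicate 2 of SD.

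**Figure D2:**
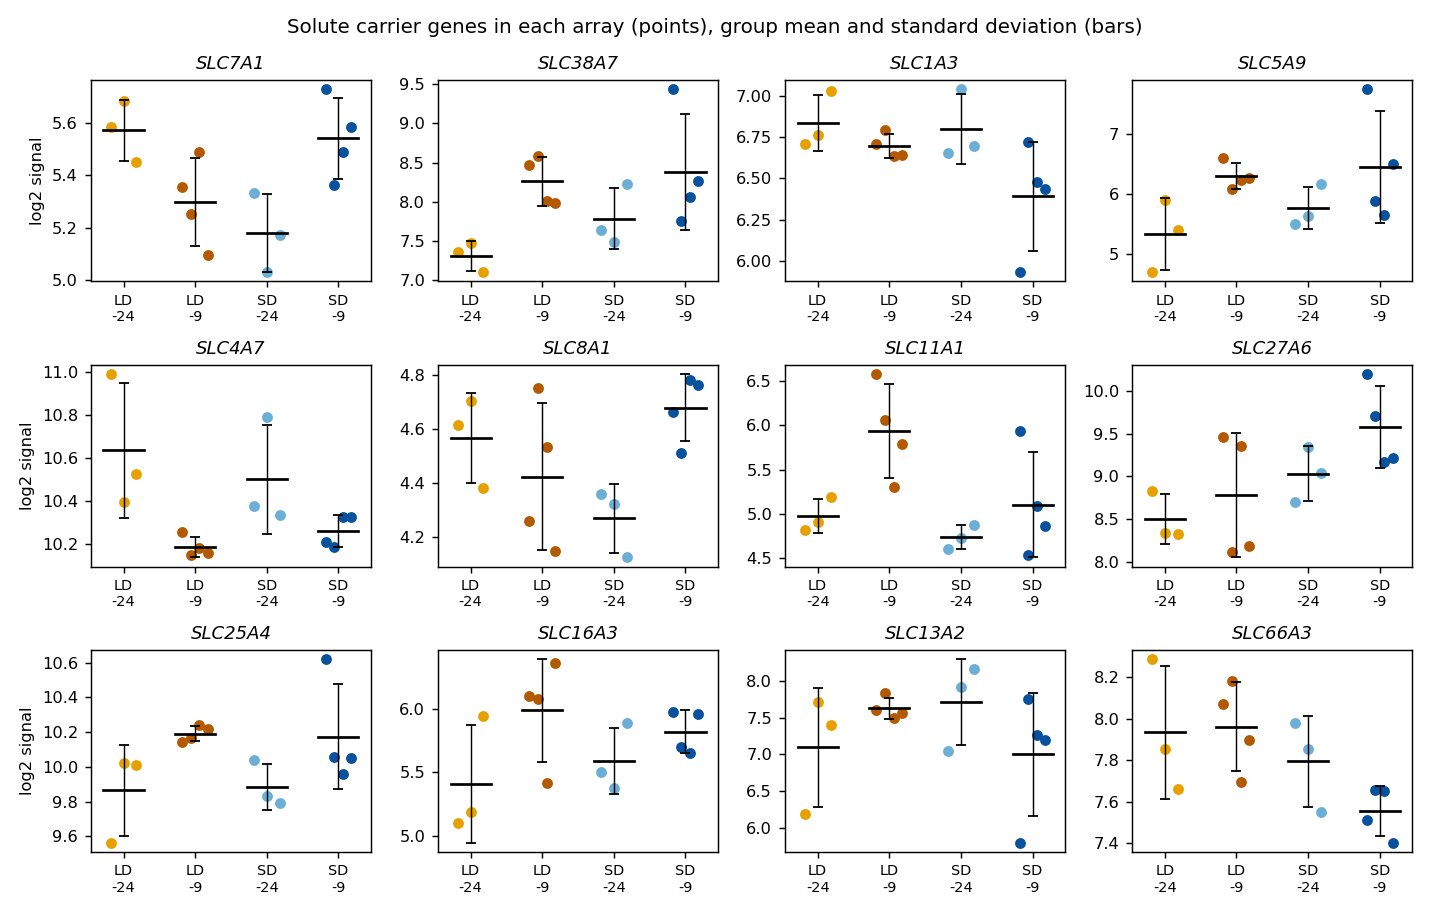
Log2 signal (vertical axes, a scale per gene) of 12 solute carrier genes in every array, grouped by photoperiod and day on the horizontal axis; points are arrays, long bars the group mean and error bars the standard deviation (n = 3 at day -24 and 4 at day -9). SLC7A1 in SD lies below LD at day -24 and not at day -9, and SLC4A7 is the gene whose day -9 arrays all lie below all day -24 arrays.

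Sugar carriers leaned towards LD at day -9, without a call. Of the 14 genes, 3 lay above 0 for SD minus LD at day -9 (median -0.10), against 39.7% of all named genes, and 8 did at day -24 (median 0.01). Without LD day -9 replicate 4 the count at day -9 was 6, and without SD day -24 replicate 3 that at day -24 was 4. The median at day -9 was below 0 in all 24 alternatives. Day -9 minus day -24 was above 0 for 9 of 14 in LD (median 0.17) and for 4 of 14 in SD (median -0.08), or 1 of 14 without SD day -24 replicate 2.

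SLC5A9, a sodium-coupled carrier of mannose and related sugars, had the largest day difference of the 162 genes when averaged over photoperiods. Its values were 4.69, 5.90 and 5.40 in LD and 5.49, 5.63 and 6.16 in SD at day -24. They were 6.59, 6.08, 6.23 and 6.26 in LD and 7.75, 5.89, 5.65 and 6.50 in SD at day -9. The LD groups did not overlap, and SD spread widely at day -9. The difference was 0.96 in LD, 0.68 in SD and 0.82 on average (0.19 to 1.46; unadjusted limma p 0.0153, limma adjusted p 0.636), and the value in SD was 0.25 without SD day -9 replicate 1.

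Among the facilitative hexose carriers, SLC2A5, the fructose carrier, was 0.56 lower in SD than in LD at day -9. Its LD values there were 7.24, 6.42, 6.96 and 8.12 and its SD values 6.55, 6.66, 6.17 and 7.11. The ranges overlapped, and the difference was -0.25 without LD day -9 replicate 4, although its other probe sets also lay below 0 (-0.32 and -0.48). SLC2A4, the insulin-responsive glucose carrier, was at 5.18, 5.03, 5.14 and 5.05 in LD and at 4.98, 5.0, 4.86 and 4.45 in SD at day -9, without overlap and with a difference of -0.28. At day -24 the SD value of its replicate 3 was 5.51, above all LD arrays, and its difference was 0.08. SLC2A6 was 0.24 lower at day -9 over both photoperiods (unadjusted limma p 0.0194, limma adjusted p 0.636), with LD values of 6.17, 5.82 and 5.92 at day -24 and of 5.76, 5.65, 5.65 and 5.74 at day -9.

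SLC5A1, the sodium-glucose cotransporter, had probe sets that differed. The leading one lay between 10.13 and 10.63 at day -24 and between 10.05 and 10.81 at day -9, and SD minus LD at day -9 was -0.17 (-0.54 to 0.20). Its day difference was 0.15 in LD and -0.13 in SD, whereas the second probe set gave 0.70 in LD and 0.46 in SD. SLC2A8, an intracellular glucose carrier, differed between days by 0.29 in LD and 0.24 in SD. SLC37A1, a sugar phosphate exchanger of the endoplasmic reticulum, differed by 0.33 and 0.15. SLC2A3, the neuronal type glucose carrier, was below 3.63 in all arrays, which is low signal.

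The 22 ion carriers included the gene whose arrays separated the days completely. SLC4A7, a sodium bicarbonate cotransporter, had values of 10.99, 10.39 and 10.52 in LD and 10.37, 10.79 and 10.34 in SD at day -24. At day -9 it had 10.25, 10.15, 10.18 and 10.16 in LD and 10.21, 10.18, 10.33 and 10.32 in SD. All 8 arrays of day -9 lay below all 6 of day -24, though the highest of one set and the lowest of the other differed only in the second decimal. Day -9 minus day -24 was -0.45 in LD, -0.24 in SD and -0.35 on average (-0.57 to -0.12; unadjusted limma p 0.00592, limma adjusted p 0.636). Without LD day -24 replicate 1, at 10.99, the LD difference was -0.27.

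The class was less one-sided than SLC4A7: 13 of the 22 ion carriers lay below 0 between days in LD (median -0.10) and 12 of 22 in SD (median -0.02). For SD minus LD 10 lay above 0 at day -24, or 16 without LD day -24 replicate 1, and 13 at day -9. SLC8A1, the sodium-calcium exchanger of the plasma membrane, had 4 probe sets, 3 of them of low signal, and its leading one had group means between 4.27 and 4.68. Its leading probe set was at 4.36, 4.32 and 4.12 in SD at day -24 and at 4.66, 4.51, 4.78 and 4.77 at day -9, with no overlap. In LD it was at 4.62, 4.71 and 4.38 and then at 4.26, 4.75, 4.53 and 4.15, with overlap. The day difference was 0.41 in SD and -0.14 in LD, and the interaction 0.56 (0.10 to 1.02; unadjusted limma p 0.0217, limma adjusted p 0.90). The other 3 probe sets gave interactions of 0.63, 0.41 and 0.77, so all had the same sign.

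SLC12A4, a potassium chloride cotransporter, was 0.48 higher at day -9 in LD, from 5.43, 6.33 and 6.45 to 6.61, 6.53, 6.69 and 6.36. LD day -24 replicate 1 was lowest, and the difference was 0.16 without it. SLC12A2, the sodium-potassium-chloride cotransporter of secretory epithelia, differed by -0.22 and -0.06 between photoperiods and by -0.18 and -0.02 between days. SLC12A3, its renal relative, was of low signal.

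Phosphate carriers behaved differently in spread. SLC20A1, a housekeeping sodium-phosphate cotransporter, lay between 10.75 and 11.10 in all arrays. SLC34A2, the epithelial one, ranged in SD at day -9 over 5.32, 4.04, 4.03 and 6.0, and its day difference in SD of 0.70 was 0.32 without replicate 4. SLC4A4, an electrogenic bicarbonate carrier, was of low signal, at 4.74, 4.65, 4.73 and 3.54 in SD at day -9. It differed from LD there by 0.41, or by 0.70 without SD replicate 4. SLC4A11 differed between days by 0.49 in LD, or 0.29 without LD day -9 replicate 1, and by 0.13 in SD, and SLC4A9 by -0.34 and 0.05. SLC5A5, the iodide carrier, differed by 0.04 and -0.41. The last value was -0.14 without SD day -24 replicate 3.

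The metal carriers held the largest photoperiod difference at day -9, that of SLC11A1, the divalent metal carrier of macrophage phagosomes. It was at 6.58, 6.06, 5.31 and 5.79 in LD and at 5.93, 4.54, 5.09 and 4.87 in SD at day -9. At day -24 it was at 4.82, 4.91 and 5.19 in LD and at 4.61, 4.73 and 4.88 in SD. LD arrays of day -9 thus lay above all others except SD day -9 replicate 1. SD minus LD at day -9 was -0.83 (-1.45 to -0.21; unadjusted limma p 0.0128, limma adjusted p 0.984), and day -9 minus day -24 in LD was 0.96 (0.29 to 1.63; unadjusted limma p 0.00863, limma adjusted p 0.651), with no overlap in LD.

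Macrophage markers had the same direction as SLC11A1 for SD minus LD at day -9. Of 11 measured genes of the macrophage list, 10 lay below 0 for SD minus LD at day -9 (median -0.22), and CD68 and GPNMB were 1.11 and 1.51 lower. The sum of the log2 values of the list per array was between 89.2 and 96.3 in LD and between 84.7 and 90.5 in SD at day -9, and between 88.4 and 91.5 in LD and 87.8 and 89.0 in SD at day -24. The highest sum was in LD day -9 replicate 2 and the highest SLC11A1 value in replicate 1 of that group. In SD at day -9 the highest SLC11A1 value was in replicate 1, whose macrophage sum was 86.4. Of 7 neutrophil markers, all lay below 0 in the same comparison (median -0.63), with S100A8 at -1.41, and sums between 40.1 and 47.6 in LD and between 36.7 and 43 in SD. Between days in SD, SLC11A1 was 0.37 higher at day -9, or 0.09 without SD day -9 replicate 1, while most macrophage markers were lower. None of these markers passed the adjusted threshold, and their part in the difference of SLC11A1 was not tested.

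The remaining 20 metal carriers, which carry mainly zinc, iron and manganese, gave smaller differences. For SD minus LD 8 of the 21 genes lay above 0 at day -24, or 13 without SD day -24 replicate 2, and 9 at day -9, and between days 13 did in LD and 14 in SD, with medians between -0.02 and 0.07. SLC39A14, a carrier of zinc and iron, was 0.33 higher at day -9 on average (unadjusted limma p 0.0442, limma adjusted p 0.643), and 0.21 without both arrays of low probe sets. SLC39A11 was at 10.75, 10.77, 10.53 and 10.89 in LD and at 10.34, 10.42, 10.54 and 10.33 in SD at day -9, a difference of -0.33 with overlap in 1 array.

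SLC39A7, which releases zinc from the endoplasmic reticulum, was 0.42 higher at day -9 in SD and 0.07 in LD. The value in SD was 0.27 without SD day -24 replicate 3. SLC39A8, a zinc and manganese carrier, differed between days by -0.23 and -0.03, SLC30A5, a zinc carrier of the secretory pathway, by -0.11 and -0.06, and SLC11A2, the main cellular iron carrier, by 0.15 and 0.31, in LD and SD respectively. The value of SLC11A2 in SD was 0.17 without SD day -24 replicate 2 and 0.16 without replicate 1 of day -9. SLC30A2, the vesicular zinc carrier required for zinc in milk, varied too much for a comparison: at day -9 it was at 4.74, 5.75, 6.42 and 5.41 in LD and at 6.58, 5.28, 5.82 and 7.56 in SD. Its difference of 0.73 (-0.34 to 1.80) was 0.31 without SD day -9 replicate 4. SLC39A12 was more variable still, between 3.38 and 7.18 over the arrays, and its difference between days in SD was 0.54 with SD day -9 replicate 1 and -0.14 without it.

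**Figure D3:**
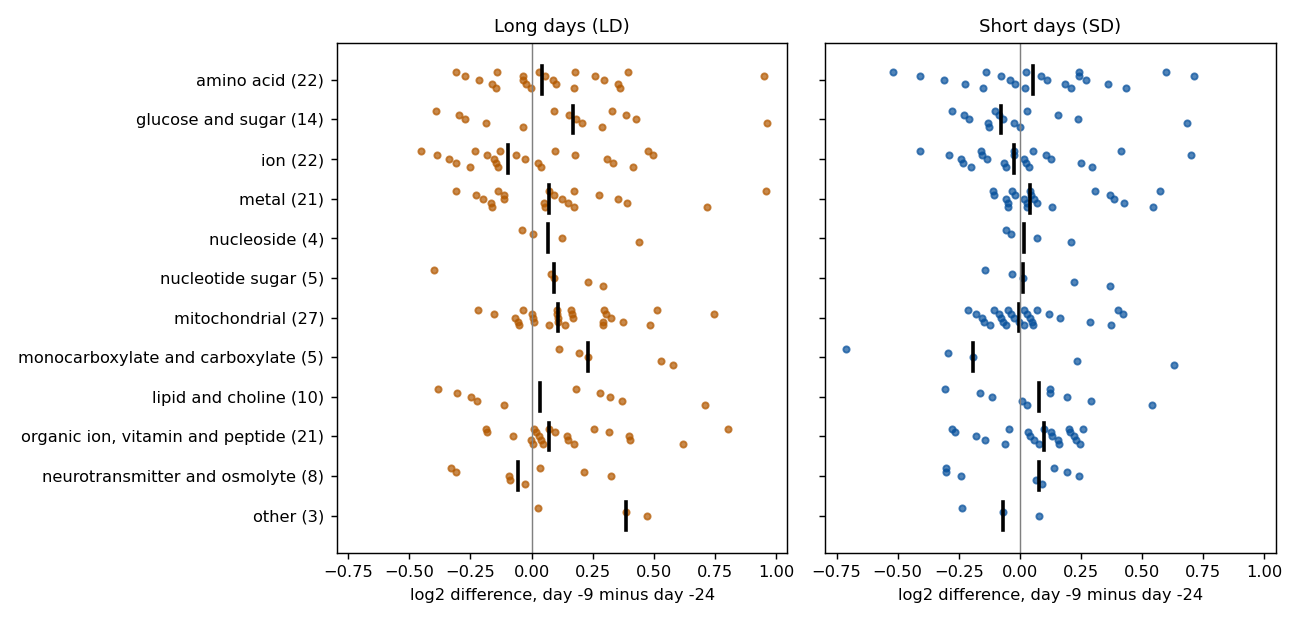
Log2 difference day -9 minus day -24 (horizontal axes) in long days (left) and short days (right) for 162 solute carrier genes, by class of cargo with the number of genes in brackets; points are genes and bars the median of a class. Mitochondrial carriers have 21 of 27 genes above 0 in LD and 13 of 27 in SD. With 1 array left out the counts are 17 to 20 in LD and 10 to 18 in SD, and no gene passed the adjusted threshold.

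Mitochondrial carriers, all of the SLC25 family, were the class with the most genes. Between days, 21 of 27 genes lay above 0 in LD (median 0.11), against 59.9% of all named genes, and 13 of 27 in SD (median -0.0043), against 42.3%. With 1 array left out, these day counts were between 17 and 20 in LD and between 10 and 18 in SD, so the ranges overlapped. SD minus LD lay above 0 for 20 of 27 at day -24 (median 0.04), against 59.9% of all named genes, and for 7 of 27 at day -9 (median -0.05), against 39.7%. Both photoperiod comparisons and both day comparisons use the same 14 arrays and are not independent of each other. The LD median was above 0 in all 24 alternatives, with 18 of 27 genes above 0 after centring each array. The count at day -9 was 11 when LD replicate 4 of that day was left out, and 13 for SD replicate 4. At day -24 the count was between 14 and 20 with 1 array left out, and the median lay below 0 in 1 of 24 alternatives. No gene of the class passed the adjusted threshold. The interaction lay below 0 for 22 of 27, against 5800 of 9155 named genes. Its count was not repeated with single arrays left out.

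SLC25A4 and SLC25A5 exchange ADP and ATP across the inner membrane, and they differed in pattern. SLC25A4 was at 9.56, 10.02 and 10.01 in LD at day -24 and at 10.14, 10.17, 10.24 and 10.22 at day -9, with no overlap. In SD it was at 10.04, 9.83 and 9.79 and then at 10.62, 10.06, 9.96 and 10.05, with overlap. The day difference was 0.31 on average (0.06 to 0.56; unadjusted limma p 0.0203, limma adjusted p 0.636). The difference of SLC25A4 in LD was 0.33, or 0.17 without LD day -24 replicate 1. Its average lay between 0.17 and 0.34 under the other settings tried. SLC25A5 differed by -0.06 in LD and -0.12 in SD, within 11.77 to 12.08 over all arrays.

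SLC25A34, a carrier without a settled cargo, was at 3.97, 5.22 and 5.0 in LD at day -24 and at 6.11, 5.20, 5.36 and 5.24 at day -9. Its difference was 0.75 in LD, 0.42 in SD and 0.58 on average (0.10 to 1.07; unadjusted limma p 0.0216, limma adjusted p 0.636). Replicate 1 was the lowest LD array at day -24 and the highest at day -9, and the LD difference was 0.36 without the former. The difference in SD was 0.16 without SD day -24 replicate 1. Its second probe set gave -0.15 in LD, so both probe sets differed in sign.

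SLC25A26, which brings S-adenosylmethionine into mitochondria, was 0.49 higher at day -9 in LD and 0.11 lower in SD. Its other probe sets gave 0.31 and 0.0022 in LD. SLC25A11, the oxoglutarate carrier of the malate-aspartate shuttle, was 0.38 higher in LD, from 7.35, 7.73 and 7.57 to 7.80, 7.85, 7.91 and 8.15, and 0.06 lower in SD. Its second probe set gave -0.19 in LD, of opposite sign. SLC25A21, the oxodicarboxylate carrier, was 0.51 higher in LD and 0.40 higher in SD, and the latter was 0.07 without SD day -9 replicate 1. The former was 0.23 without LD day -24 replicate 2.

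Carriers tied to fat synthesis and oxidation differed little. SLC25A1, which exports citrate for fatty acid synthesis, differed between days by 0.30 in LD and 0.03 in SD. SLC25A20, the carnitine-acylcarnitine carrier of fatty acid oxidation, differed by 0.0027 and -0.18, and its SD arrays of both days did not overlap, at 10.92, 10.93 and 11.26 and at 10.85, 10.80, 10.90 and 10.88. SLC25A33, a pyrimidine nucleotide carrier, differed by -0.05 and -0.03, and SLC25A37, the mitochondrial iron carrier, by 0.11 and 0.02.

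Carboxylate carriers, 5 genes, had the largest interaction in size. SLC13A2, a sodium-coupled citrate and dicarboxylate carrier, was at 6.18, 7.72 and 7.40 in LD and at 7.05, 7.93 and 8.17 in SD at day -24. At day -9 it was at 7.61, 7.84, 7.50 and 7.56 in LD and at 5.80, 7.75, 7.27 and 7.20 in SD. The groups overlapped at both days, and a single low array stood in LD at day -24 and in SD at day -9, replicate 1 in each. The interaction was -1.24 (-2.59 to 0.10; unadjusted limma p 0.067, limma adjusted p 0.90). Without LD day -24 replicate 1 it was -0.78.

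SLC13A3, its relative of low signal, was 0.29 lower at day -9 in SD, with no overlap. Among the monocarboxylate carriers, SLC16A3, the lactate exporter of glycolytic cells, was at 5.10, 5.19 and 5.95 in LD at day -24 and at 6.11, 6.08, 5.41 and 6.36 at day -9. Its difference was 0.58 in LD, 0.23 in SD and 0.41 on average (0.04 to 0.77; unadjusted limma p 0.0332, limma adjusted p 0.639). The other 2 probe sets gave -0.15 and -0.07 in LD, so the leading probe set differed from them in sign. SLC16A1, the general lactate, pyruvate and ketone carrier, ranged from 9.91 to 12.14 over the arrays, and its difference at day -24 of -0.42 was 0.05 without SD day -24 replicate 2 and -0.05 without LD replicate 1 of that day. SLC16A13 was 0.38 higher in SD at day -24, and 0.20 without SD day -24 replicate 3.

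Of the 10 carriers of lipids, bile acids and choline, SLC27A6, a fatty acid transport protein abundant in bovine mammary tissue, had the largest photoperiod difference averaged over days. Its values were 8.84, 8.34 and 8.33 in LD and 8.71, 9.35 and 9.04 in SD at day -24. They were 9.46, 8.13, 9.35 and 8.19 in LD and 10.19, 9.70, 9.17 and 9.22 in SD at day -9. The groups overlapped at both days, and LD at day -9 held a higher and a lower pair of arrays. SD minus LD was 0.53 at day -24, 0.79 at day -9 and 0.66 on average (0.12 to 1.20; unadjusted limma p 0.0202, limma adjusted p 1.0). The average stayed between 0.55 and 0.77 under all settings tried.

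The second fatty acid transport protein named, SLC27A4, was at 5.61, 5.52 and 5.60 in LD and at 5.42, 5.26 and 5.34 in SD at day -24, with no overlap and a difference of -0.24. At day -9 it differed by 0.02. SLC33A1, which brings acetyl-CoA into the endoplasmic reticulum, was 0.45 lower in SD at day -24 and 0.01 lower at day -9. SLC10A3, an orphan of the bile acid carrier family, differed by -0.26 and -0.03. SLC44A4, a choline carrier-like protein, differed by 0.45 and -0.42, the first of which was 0.04 without LD day -24 replicate 1. The second was -0.24 without LD day -9 replicate 4 and -0.23 without SD replicate 1 of that day. SLC10A1, the bile acid carrier of liver, differed by -0.53 at day -24 with LD day -24 replicate 1, at 6.30, and by 0.12 without it.

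The 4 nucleoside carriers had a median within-group standard deviation of 0.188 and the 5 nucleotide sugar carriers one of 0.271, against 0.269 over all solute carriers. SLC28A3, a concentrative nucleoside carrier, lay between 11.26 and 11.60 in all arrays, and SLC29A1, an equilibrative one, between 8.82 and 9.49. SLC29A2, the second equilibrative carrier, was at 5.41, 5.72, 5.52 and 5.38 in LD and at 5.07, 4.71, 5.08 and 5.38 in SD at day -9, a difference of -0.45 in which 1 SD array reached the LD range. SLC35A2, the UDP-galactose carrier of the Golgi that serves lactose synthesis, differed by -0.03 and -0.10 between photoperiods. Between days it was 0.29 higher in LD and 0.22 higher in SD, and its second probe set gave 0.15 and 0.14. SLC35A4, of the same family, differed by 0.23 and 0.01 between days.

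SLC35A3, the UDP-N-acetylglucosamine carrier of the Golgi, was low in the pair of arrays with low probe sets. It was at 5.07 in LD day -9 replicate 4 and at 5.26 in SD day -24 replicate 3, while the other 12 arrays lay between 6.24 and 7.25. The interaction was 0.77 with both arrays and -0.31 without them. SLC25A6, SLC38A2 and SLC39A6 each had 1 probe set with the same pattern, and their other probe sets lacked it. For SLC39A6, a zinc importer, that probe set gave -1.01 between days in LD, and the other gave -0.16. For SLC38A2 they gave -0.41 and -0.04. SLC25A6, an ADP/ATP carrier, had values of 8.25 and 8.28 in both arrays against 9.45 to 9.65 in the others. The origin of this pattern was not tested.

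**Figure D4:**
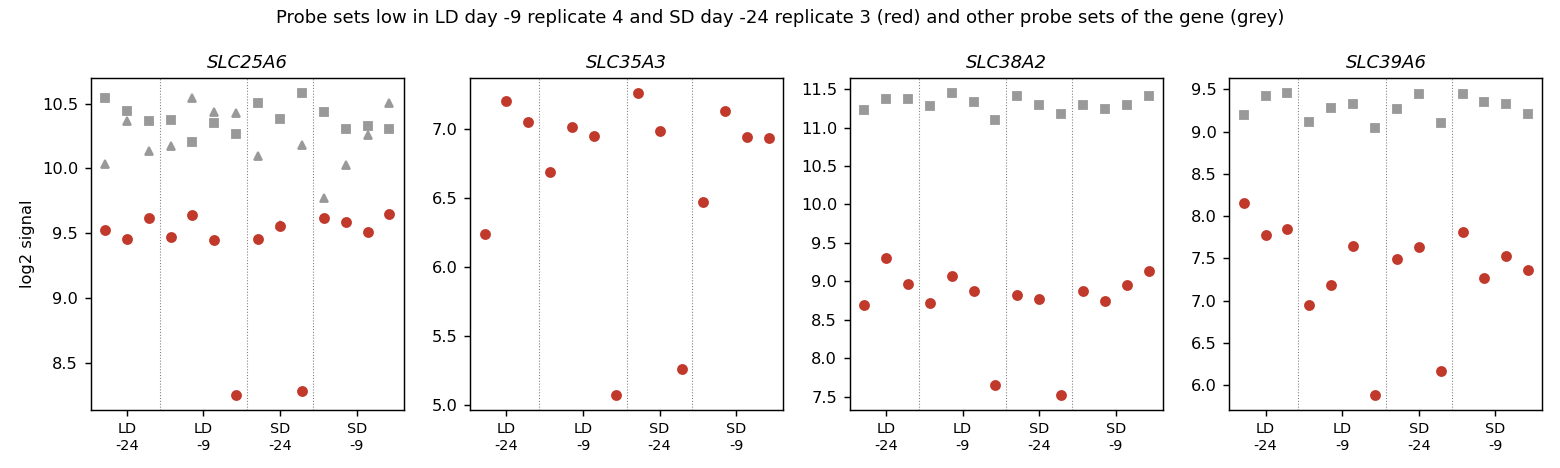
Log2 signal (vertical axes) in each of the 14 arrays, by photoperiod and day on the horizontal axis, for the 4 genes with a probe set that is low both in LD at day -9, replicate 4, and in SD at day -24, replicate 3 (red circles); grey symbols are the other probe sets of the same gene. For the red probe sets, the mean of both arrays lies 1.27 to 1.74 below the mean of the other 12 arrays, and SLC35A3 has no other probe set.

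Carriers of organic ions, vitamins and peptides, 21 genes, were above 0 between days for 17 in LD (median 0.07) and 15 in SD (median 0.10). After centring each array the counts were 11 and 15, and without LD day -24 replicate 3 that in LD was 11. For SD minus LD, 9 lay above 0 at day -24, or 15 without SD day -24 replicate 2, and 10 at day -9. SLC46A2, a relative of the folate carrier of the gut, was at 5.79, 6.92 and 7.80 in LD at day -24 and at 8.02, 7.14, 7.08 and 8.32 at day -9. Its SD values at day -9 were 7.34, 6.62, 6.65 and 6.96. SD minus LD at day -9 was -0.75 (-1.57 to 0.08), with overlap, and the day difference in LD of 0.80 was 0.28 without LD day -24 replicate 1. SLC15A4, a lysosomal histidine and peptide carrier, was at 9.62, 9.83 and 9.80 in LD and 10.09, 9.87 and 10.23 in SD at day -24, with no overlap and a difference of 0.31, and differed by 0.03 at day -9.

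SLC22A5, the carnitine carrier, differed by -0.02 and 0.20 between photoperiods and by 0.01 and 0.23 between days. SLC22A17 differed by 0.43 and -0.24 between photoperiods, and the former was 0.23 without LD day -24 replicate 1 and 0.24 without SD replicate 3 of that day. SLC19A1, the reduced folate carrier, differed by -0.30 and -0.16. SLC22A6, an organic anion carrier of the kidney, and SLC17A2 differed by 0.15 and 0.28 at day -9, and both were of low signal.

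Among the 8 carriers of neurotransmitters and osmolytes, SLC5A11, a myo-inositol carrier, was at 5.11, 4.49 and 4.68 in LD and 4.84, 4.57 and 4.74 in SD at day -24, and at 4.42, 4.28, 4.39 and 4.63 in LD and 4.53, 4.41, 4.54 and 4.42 in SD at day -9. The SD arrays of both days did not overlap. The difference was -0.29 on average (-0.51 to -0.06; unadjusted limma p 0.0153, limma adjusted p 0.636). SLC6A8, the creatine carrier, was 0.32 higher at day -9 in LD and 0.07 in SD, and the LD value was 0.13 without LD day -24 replicate 1. SLC17A6, a vesicular glutamate carrier of neurons, ranged from 3.56 to 6.41 and its day difference in LD was -0.31 with that array and 0.52 without it.

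The SLC66 family of lysosomal and related carriers had 3 genes, all below 0 for SD minus LD at day -9, although 1 lay above it without SD day -9 replicate 2. SLC66A3 was at 8.07, 8.18, 7.69 and 7.90 in LD and at 7.51, 7.66, 7.65 and 7.40 in SD, without overlap. Its difference was -0.41 (-0.74 to -0.07; unadjusted limma p 0.0215, limma adjusted p 0.984), and -0.14 at day -24. SLC66A1, which exports cationic amino acids from lysosomes, differed by -0.12 and SLC66A2 by -0.32 at day -9, the latter by -0.15 without LD day -9 replicate 4. SLC66A1 was 0.47 higher at day -9 in LD with no overlap, and 0.24 without LD day -24 replicate 1.

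**Figure D5:**
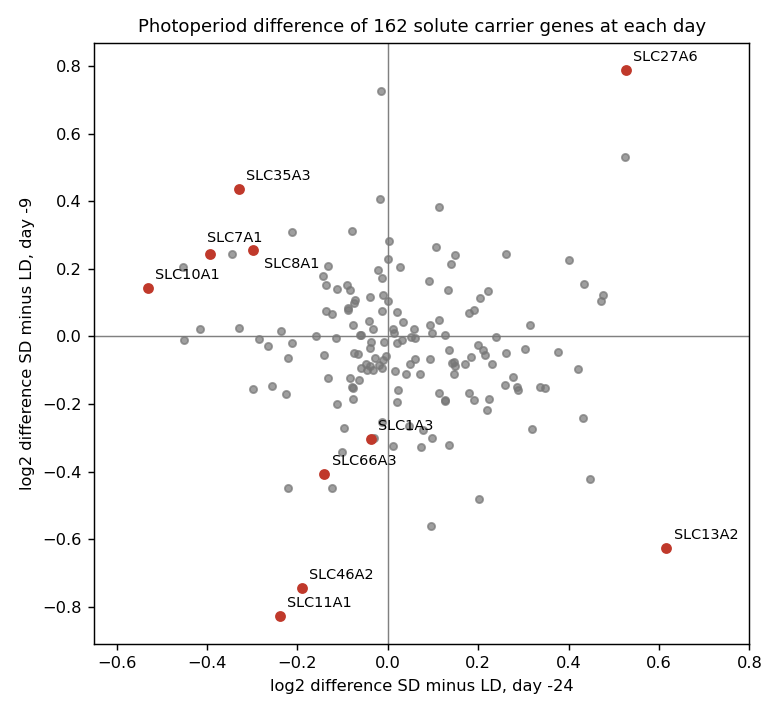
Log2 difference SD minus LD at day -24 (horizontal axis) and at day -9 (vertical axis) for 162 solute carrier genes; each point is a gene and 10 genes are named in red. SLC27A6 is positive at both days, SLC11A1 and SLC46A2 are lowest at day -9, and SLC13A2 has opposite signs, while no gene passed the adjusted threshold at either day.

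Where a gene had several probe sets, these often disagreed. Of 46 such genes, all probe sets had the same sign in 19 for SD minus LD at day -24, in 28 at day -9, in 30 for the day difference in LD and in 24 for that in SD. For the interaction it was 20. Differences of genes with 1 probe set lack this check.

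Lists of other genes gave no call beside the solute carriers. Of 36 measured genes of other membrane transport (pumps, channels, aquaporins and ABC transporters), SD minus LD was above 0 for 22 at day -24 and 17 at day -9, and day -9 minus day -24 for 19 in LD and 15 in SD. Of 18 measured genes of the amino acid response and amino acid synthesis, SD minus LD lay above 0 for 10 at day -24. It did for 2 at day -9 (median -0.21), which were GLUL and OAT. Of all named genes 59.9% lay above 0 at day -24 and 39.7% at day -9. The mean log2 level of this list, after centring each gene on all arrays, overlapped between the groups of day -9. It was 0.09 in SD replicate 1 and -0.02 in LD replicate 2 of that day. PYCR1, an enzyme of proline synthesis, was 0.39 lower and SHMT2, an enzyme of mitochondrial one-carbon metabolism, 0.31 lower there. The amino acid carriers had a median of 0.0042 in that comparison. In both lists 0 genes passed the adjusted limma threshold in any comparison, and at an unadjusted p under 0.05 the amino acid list had 0 of 18 in the 4 pair comparisons. The transport list had 1 of 36 at day -24 (background 2.42%), 0 at day -9 (2.77%), 3 for the day difference in LD (7.47%) and 1 for that in SD (4.56%).

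Cell type markers were counted in the same way, beside 59.9% of all named genes above 0 between days in LD and 42.3% in SD. Day -9 minus day -24 was above 0 in LD and SD for 11 and 12 of 15 luminal epithelial markers, for 8 and 8 of 10 myoepithelial, for 11 and 11 of 13 adipocyte and for 9 and 9 of 11 endothelial markers. Of the fibroblast markers 9 and 3 of 13 lay above 0, and of the milk genes 7 and 12 of 12. Among other cells, 6 and 2 of 11 macrophage markers, 6 and 4 of 7 neutrophil, 6 and 2 of 14 T and NK, 3 and 0 of 6 B and plasma, 4 and 5 of 11 skeletal muscle, 2 and 2 of 6 erythrocyte and 1 and 2 of 2 keratinocyte markers lay above 0. No marker passed the adjusted threshold. Marker levels, as the mean log2 value of a list after centring each gene on all arrays, also stood apart in single arrays. SD day -9 replicate 1 was at 0.57 for luminal epithelial markers, against -0.12 to -0.03 in the other SD arrays of that day, and at 0.68 for myoepithelial markers, against -0.12 to 0.07. LD day -24 replicate 1 was at -0.34 for luminal epithelial, -0.57 for myoepithelial and 0.86 for keratinocyte markers, against -0.03 and 0.05, -0.12 and 0.02, and -0.35 and -0.24 in the other LD arrays of that day. Their part in the day differences of solute carriers was not tested.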

How the data were processed

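Bovine mammary biopsies were measured on 14 Affymetrix arrays, and the authors deposited 1 table of RMA values per probe set, per the submitters' processing notes, which give no version. The log base is not given in the sources used here. From their range of 1.49 to 13.88 the deposited values were taken as log2, and they were used unchanged. Arrays give no counts, so their number limits the precision. Of 24128 probe sets, 112 control probe sets were left out. GEO's platform annotation gave 1 gene symbol for 13292 of the tested probe sets, several for 86 and none for 10638. Probe sets with several symbols were not named, and all 162 solute carrier genes were found in the RefSeq gene table with the same symbol. No sequences are shown and no coordinates are given, because no genome was used here.

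Group means of the 4 groups were fitted over all 14 arrays with limma 3.58.1 in R 4.3.3 (lmFit and eBayes, 10 residual degrees of freedom), with the Benjamini-Hochberg adjustment across 24016 probe sets and a threshold of 0.05. The 7 contrasts were SD minus LD at each day and averaged, day -9 minus day -24 in each photoperiod and averaged, and the interaction. Intervals are 95% intervals of the fit. The fit was tested on simulated data. The genes named were 33 measured genes of a list of 42 carriers known from mammary gland, the 8 of smallest p in each contrast, and the 2 of largest spread over arrays in each of the 12 classes, 80 in all; a few others are named for the array pattern of their probe sets or in captions, after their values were seen. Members, classes and lists were chosen with earlier results of these data known. Alternatives were a filter at a mean of 5, another variance prior, scaling, array weights, a replicate block and leaving arrays out. Tables and plots used Python 3.11.15.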

Additional observations from a re-analysis of the deposited data

Results flagged for a closer look

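In 15 of 160 groups of 4 arrays, the highest or lowest array of a named solute carrier gene lay apart from the other 3 by Dixon's test at the 95% level. Chance gives this in about 1 group in 20 for independent genes not picked by their values. Part of the named genes were picked for large spread or small p in these arrays, and all share the same arrays. That rate is therefore no measure for this list. Of the 15 groups, 8 had SD day -9 replicate 1 as the array apart. It was high for SLC15A4, at 10.50 where the lowest of the others was 9.92, for SLC25A21, at 6.09 against 4.73 to 4.79 in the others, and for SLC25A4, at 10.62 against 9.96 to 10.06. It was also high for SLC25A5, at 12.01 against 11.82 to 11.85, and for SLC39A8, at 10.64 against 9.89 to 10.01. It was low for SLC22A17, at 6.86 against 7.64 to 7.73, for SLC29A1, at 8.82 against 9.38 to 9.42, and for SLC6A14, at 8.42 against 9.82 to 9.89.

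SD day -9 replicate 4 was high for SLC35A2, at 8.71 against 8.11 to 8.19, and for SLC5A1, at 10.59 against 10.18 to 10.24, and low for SLC4A4, at 3.54 against 4.65 to 4.74. SD day -9 replicate 2 was low for SLC13A3, at 2.79 against 3.10 to 3.12, and high for SLC19A1, at 5.25 against 5.01 to 5.03. LD day -9 replicate 4 was low for SLC35A3, at 5.07 against 6.68 to 7.01, and high for SLC66A2, at 7.44 against 6.70 to 6.81.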

How the results depend on the processing

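No solute carrier probe set passed the adjusted limma threshold in any of the 7 comparisons under any of 23 other settings, and the smallest adjusted p of a solute carrier under any of them was 0.369. Of 560 pairs of a named gene and a comparison, 309 (55.2%) kept their sign under all settings run, and of 153 pairs with a difference of 0.3 or more in size, 129 did. In all, 773 of 12514 recomputed differences (6.18%) changed sign. Counts at an unadjusted p under 0.05 ranged from 1 to 11 for SD minus LD at day -24, 3 to 15 at day -9 and 2 to 15 on average. They ranged from 3 to 24 for the day difference in LD, 2 to 12 in SD and 9 to 22 on average, and from 2 to 14 for the interaction. With array weights the photoperiod count was 15 at day -9 (6.52%, background in that fit 6.45%), 15 on average (6.52%, background 6.06%) and 8 at day -24 (3.48%, background 4.29%), and the interaction count was 9 (3.91%, background 4.64%). A further setting left out probe sets of a mean under 5. There the counts at day -24, for the day difference in SD and for the interaction were each 2 (1.46%, backgrounds 2.59%, 4.99% and 4.55%). The other comparisons under that filter lay above their backgrounds. SD minus LD gave 4 at day -9 (2.92%, background 2.70%) and 3 on average (2.19%, background 1.89%). Day -9 minus day -24 gave 12 in LD (8.76%, background 7.94%) and 12 on average (8.76%, background 8.01%). With only the groups compared, the count at day -24 was 1 (0.435%, background 1.70%). Without both arrays of low probe sets, the day counts were 8 in SD (3.48%, background 3.68%) and 22 on average (9.57%, background 8.90%). In LD that count was 17 (7.39%, background 6.46%), and for SD minus LD at day -24 it was 5 (2.17%, background 1.60%).

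With the replicate number as a block (replicate block), 0 solute carrier probe sets passed the adjusted threshold in each comparison. The unadjusted counts were 9 for the day difference in LD (3.91%, background in that fit 5.70%) and 7 in SD (3.04%, background 6.02%). For the day difference averaged over photoperiods the count was 18 (7.83%, background 6.37%), above its background. The interaction count was 9 (3.91%, background 5.04%). Whether the numbers pair the samples is not settled by these values. Of 19 same-numbered pairs, 9 had a correlation of deviations over 0.1 (range -0.342 to 0.331). The median correlation was 0.097 over all same-numbered pairs and -0.056 over the 54 pairs of other numbers. The own number correlated best in 18 of 38 combinations, each with 3 or 4 arrays to choose from.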
